A study of Mus musculus with 4 samples.

Results

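The 10 genes described here are Fezf1, Bcl11b, Bcl11a, Sox5, Tle4, Foxp2, Lmo4, Pcp4, Etv1 and Ldb2, out of 22558 gene symbols measured. They were chosen by name: Fezf1 is the paralog of the zinc-finger gene Fezf2, and the others are tied to Fezf2 in projection neurons of the cerebral cortex. Their levels were read in mouse retinas that lacked Fezf2 and in control retinas. The groups were Fezf2 knockout (KO) retina at postnatal day 14 (P14), control littermate retina at P14, KO retina at postnatal day 7 (P7) and control littermate retina at P7, all on the background given as C57/BL/6J. Control littermates are labelled wildtype. Of the knockout allele, the sex of the mice and the number of retinas pooled, the labels say nothing. Each group had 1 library, 4 in all, so no group has a replicate spread. The study's stated purpose was to find what Fezf2 does in retinal development.

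In the developing cortex, Fezf2 directs newborn neurons of the deep layers to become corticofugal neurons, which send axons out of the cortex to the brainstem and spinal cord. Bcl11b (also called Ctip2) acts downstream of Fezf2 in these neurons, and the co-repressor Tle4 binds the Fezf2 protein. Sox5, Foxp2, Etv1, Pcp4 and Ldb2 mark or shape subsets of the deep layers, while Lmo4 is also used by callosal neurons, whose axons join both hemispheres. The retina has no such layers, and most of these genes are also transcribed in retinal neurons.

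The level is given in FPKM, a fragment count scaled by transcript length and library size, which can be compared between genes. Each level comes with a deposited lower and upper bound, which cover counting error within a library and neither the differences between mice nor those between dissections. A difference is called beyond counting error below when the bounds of the libraries compared do not overlap. Differences are on a log2(FPKM + 1) scale, on which changes of low genes come out too small. The libraries were amplified by PCR and the protocol names no molecular identifiers, so reads are not independent molecules. In the mm9 build of the files, the loci are Fezf1 at chr6:23195047-23198264, Bcl11b at chr12:109148613-109241624, Bcl11a at chr11:23978056-24073558, Sox5 at chr6:143776945-144158088 and Tle4 at chr19:14522562-14672473. The others are Foxp2 at chr6:14851349-15391977, Lmo4 at chr3:143851494-143868219, Pcp4 at chr16:96689213-96747400, Etv1 at chr12:39506845-39594802 and Ldb2 at chr5:44863372-45190946. The files give 1 level per gene and list 3 start-site groups for Lmo4, 2 each for Bcl11a, Foxp2 and Etv1, and 1 for each of the others. All 10 genes had 1 row in each file, with a usable level in all 4 libraries, and no other listed locus overlapped any of them. The library protocol names no step that marks strand, so antisense reads cannot be told apart.

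The start regions of the genes differ in base composition, and 3 of them are shown for their contrast. Fezf1 was lower in KO at both ages, while Pcp4 had the largest rise and Lmo4 the largest fall with age among the 10. Each sequence runs 5′ to 3′ from 250 bases before to 50 bases after a RefSeq start site (GRCm38.p6 build), with CG dinucleotides in capitals. The Fezf1 window is chr6:23248215-23248514 on the minus strand, the Pcp4 window chr16:96467356-96467655 on the plus strand, and the Lmo4 window chr3:144205206-144205505 on the minus strand, 1 of 3 for that gene.
Fezf1: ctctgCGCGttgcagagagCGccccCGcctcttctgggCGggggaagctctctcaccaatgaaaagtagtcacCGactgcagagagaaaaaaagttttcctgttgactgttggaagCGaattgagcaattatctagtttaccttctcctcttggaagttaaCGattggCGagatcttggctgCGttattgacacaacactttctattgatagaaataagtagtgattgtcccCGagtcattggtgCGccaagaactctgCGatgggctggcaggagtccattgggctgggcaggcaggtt
Pcp4: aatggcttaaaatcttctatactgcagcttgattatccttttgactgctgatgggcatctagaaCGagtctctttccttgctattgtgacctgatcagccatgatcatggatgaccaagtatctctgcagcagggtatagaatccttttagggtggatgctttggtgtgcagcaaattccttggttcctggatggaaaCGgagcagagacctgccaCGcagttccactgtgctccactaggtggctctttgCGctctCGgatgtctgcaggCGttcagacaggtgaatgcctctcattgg
Lmo4: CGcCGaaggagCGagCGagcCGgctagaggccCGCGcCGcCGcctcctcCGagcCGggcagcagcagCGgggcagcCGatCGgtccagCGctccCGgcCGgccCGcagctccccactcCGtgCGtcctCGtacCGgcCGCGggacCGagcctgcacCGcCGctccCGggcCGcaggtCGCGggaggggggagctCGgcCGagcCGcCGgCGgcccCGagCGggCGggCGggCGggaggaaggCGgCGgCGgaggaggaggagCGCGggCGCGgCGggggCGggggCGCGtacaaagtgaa
The Pcp4 window holds 6 CG dinucleotides at 48.7% G and C, the Fezf1 window 13 at 50%, and the Lmo4 window 52 at 81.3%. The median over 32851 RefSeq windows of this length is 7 CG dinucleotides and 52.7% G and C. In all, 8 of the 10 genes matched an entry, with 12 windows, of which 9 had more CG dinucleotides than that median. Ldb2 and Foxp2 had no entry. The motif TAATCC, bound by the photoreceptor and bipolar factors Crx and Otx2, was searched on both strands and was in 0 of the 12 windows, against 7.06% of all windows. The TATA motif TATAAA was in 2 of the 12, in Bcl11b and in 1 of 2 Etv1 windows, against 13.6% of all. Such matches describe the letters of a window and not a site that is used.

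Fezf2 itself was at 0.126 FPKM in KO against 4.02 in control at P14, and at 0.592 FPKM in KO against 8.32 in control at P7. KO retina thus held 3.14% of the control level at P14 and 7.12% at P7. Of 7 rod, bipolar, amacrine, ganglion cell, horizontal, cone and Mueller glia marker lists, 0 had a gene listed at 0 in any library. Relative depth, judged from the width of the bounds, was 1.06 in KO P14, 0.808 in control P14 and 0.965 in KO P7, set against control P7.

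Some markers of single cell types moved with genotype, and in bulk retina fewer cells of a type and less RNA per cell cannot be told apart. Of all genes at 1 FPKM or more in either library, 7.45% were higher and 8.25% lower beyond counting error at P14. At P7 7.34% were higher and 6.1% lower. At 100 FPKM or more, the level of several markers, 39.6% were higher and 9.21% lower at P14, and 35.2% higher and 5.49% lower at P7. The marker counts were not repeated on rescaled libraries. Ganglion cell markers summed to 1156 FPKM in KO against 996 in control at P14, with 6 of 7 higher beyond counting error. At P7 they summed to 584 FPKM in KO against 516 in control, with 3 of 7 higher. Amacrine markers summed to 269 FPKM in KO against 285 in control at P14 (2 of 6 lower) and to 201 FPKM in KO against 228 in control at P7 (3 of 6 lower). Bipolar markers summed to 259 FPKM in KO against 315 in control at P14, with 4 of 6 lower and 0 higher, and to 470.4 FPKM in KO against 473 in control at P7, with 2 higher and 2 lower. Horizontal cell markers summed to 52.0 FPKM in KO against 44.9 in control at P14 (1 of 4 higher) and to 26.9 FPKM in KO against 20.5 in control at P7 (3 of 4 higher). Cone markers summed to 912 FPKM in KO against 839 in control at P14 (2 of 5 higher, 2 lower) and to 261 FPKM in KO against 199 in control at P7 (2 of 5 higher). Rod markers summed to 18771 FPKM in KO against 17649 in control at P14, with 4 of 5 higher and 0 lower. At P7 they summed to 4230 FPKM in KO against 4125 in control, with 1 of 5 higher and 2 lower. Mueller glia markers summed to 1572 FPKM in KO against 1509 in control at P14 (1 of 4 higher). At P7 they summed to 430 FPKM in KO against 444 in control (1 of 4 lower). Pigment epithelium markers summed to 71.4 FPKM in KO against 93.2 in control at P14 (4 of 5 lower) and to 38.5 FPKM in KO against 29.0 in control at P7 (2 of 5 higher). Lens, vitreous and ciliary body markers summed to 4.25 FPKM in KO against 46.5 in control at P14 (4 of 4 lower), but to 26.8 FPKM in KO against 3.76 in control at P7 (4 of 4 higher). Of these, Cryba1 was listed at 0 in the KO P14 library, and Crygs in the KO P14 and control P7 libraries. Erythroid markers summed to 356 FPKM in KO against 1180.0 in control at P14 (5 of 5 lower). At P7 they summed to 339 FPKM in KO against 291 in control (1 of 5 higher). Microglia markers summed to 12.4 FPKM in KO against 14.3 in control at P14 (0 of 4 higher or lower). At P7 they summed to 25.8 FPKM in KO against 27.3 in control (0 of 4 higher or lower). The part of these shifts in the results below was not tested.

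The levels of the 10 genes spread widely. Pcp4 stood highest in all 4 libraries and exceeded 98.6% to 99.7% of genes. Lmo4 came next, above 89.9% to 95.2% of genes. Below it, Ldb2 stood above Tle4 in both P14 libraries and Tle4 above Ldb2 in both P7 libraries, each time with bounds apart. Bcl11a, Etv1 and Sox5 formed a middle group between 1.65 and 4.37 FPKM, in which Bcl11a and Etv1 could not be told apart by their bounds at P14, nor Sox5 and Etv1 at P7. Foxp2, Fezf1 and Bcl11b lay at or below 1.05 FPKM everywhere. Bcl11b, a central corticofugal gene downstream of Fezf2 in cortex, exceeded no more than 39.0% of genes in any library.

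**Figure D1:**
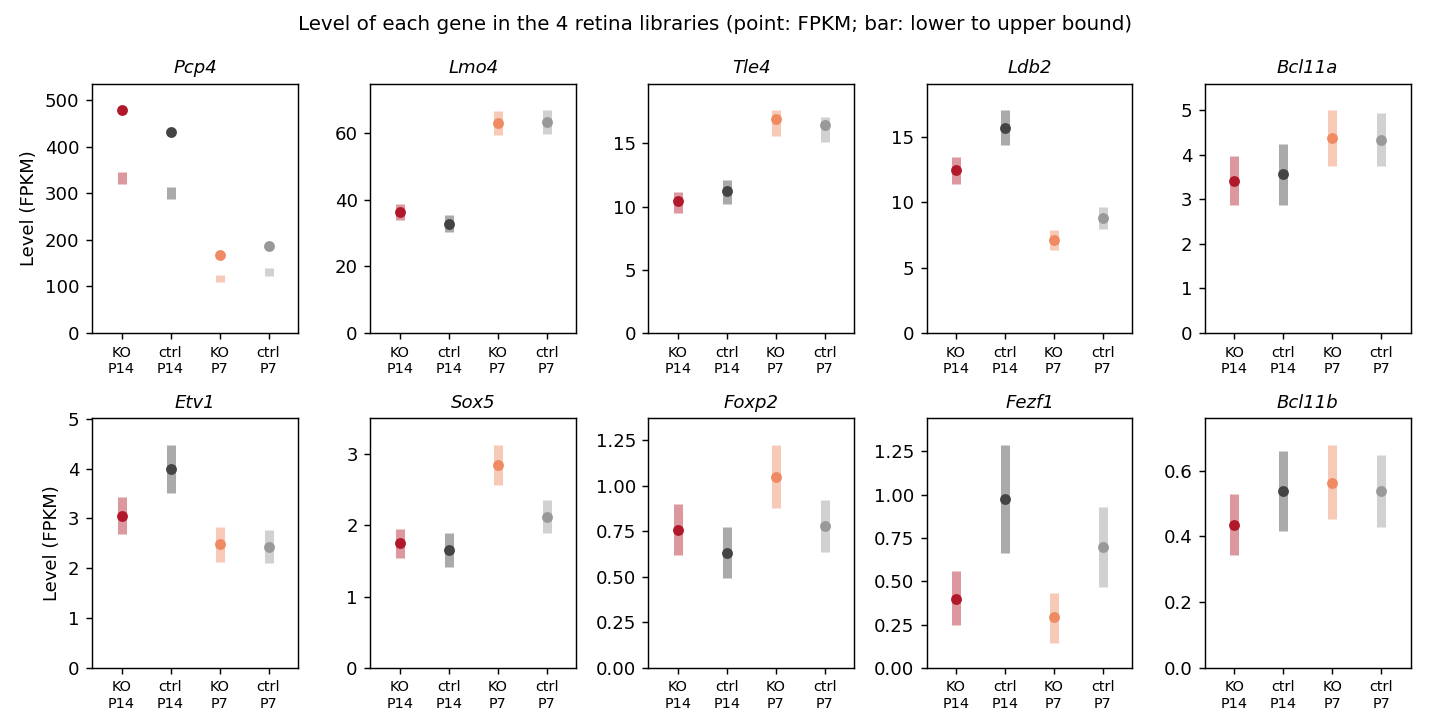
Level in FPKM (vertical axis, from 0, own scale per gene) of each of the 10 genes in the KO and control libraries at P14 and P7; points are FPKM and bars run from the lower to the upper bound. Fezf1 and Ldb2 are lower in KO than in control at both ages with bars that do not overlap, and for Pcp4 the level lies above its own bounds.

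In KO against control retina, Fezf1 and Ldb2 were lower in KO beyond counting error at both ages, and none of the 10 genes was higher beyond it at both. At P14, 3 of the 10 were lower (Fezf1, Etv1 and Ldb2) and 1 was higher (Pcp4). The background at P14, over genes at 1 FPKM or more in either library, was 8.25% lower and 7.45% higher (15.7% in all). At P7, 2 were lower (Fezf1 and Ldb2) and 1 was higher (Sox5), against a background of 6.1% lower and 7.34% higher (13.4% in all). Lower at both ages were 1.42% of all genes and higher at both 1.5%. Counts of 1 to 3 among 10 genes are small, and 7 of the 10 at P14 and 8 at P7 reached the level of the background genes. None of the 10 reached a 1.5-fold difference at either age on the log2(FPKM + 1) scale. Among all genes 0.453% were higher and 1.02% lower by that much at P14 (1.48% in all), and 0.379% higher and 0.616% lower at P7 (0.995% in all). Their median log2 difference was -0.07 at P14 and 0.02 at P7, with all genes at 0.00 and 0.01.

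Fezf1, which in mouse works with Fezf2 in forebrain patterning and in olfactory neurons, was at 0.396 FPKM in KO retina (bounds 0.246 to 0.558) and at 0.972 FPKM in control retina (0.665 to 1.29) at P14. At P7 it was at 0.295 FPKM in the KO (0.144 to 0.431) and at 0.697 FPKM in control retina (0.464 to 0.928). Both KO values lay below both control values, at 40.7% of the control level at P14 and 42.4% at P7. The log2 differences of -0.50 and -0.39 understate these ratios, because the level is under the added 1 FPKM. Read as 2 standard deviations either way, the bounds correspond to about 26.6 fragments in KO and 39.5 in control at P14, and to 16 in KO and 36 in control at P7. Among 2079 genes with a mean of 0.2 to 1 FPKM at P14, 4.71% were lower beyond counting error, and 3.23% of 2106 such genes at P7.

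Ldb2, a LIM-domain-binding cofactor also known as Clim1, was at 12.4 FPKM in KO retina (bounds 11.4 to 13.5) and at 15.7 FPKM in control retina (14.4 to 17.03) at P14. At P7 it was at 7.14 FPKM in the KO (6.38 to 7.90) and at 8.82 FPKM in control retina (7.98 to 9.67). KO retina held 79.2% of the control level at P14 and 80.9% at P7, log2 differences of -0.31 and -0.27. Only 5.17% of the background genes at P14 and 5.98% at P7 had a lower difference. At 5 to 20 FPKM, the band in which Ldb2 lies, 7.76% of genes at P14 and 7.63% at P7 were lower beyond counting error. A limma fit of genotype and age over the 4 libraries gave Ldb2 a genotype difference of -0.29 ± 0.096 (SE), with an unadjusted p of 0.0101 and a Benjamini-Hochberg adjusted p of 0.364 over 12933 genes. The difference therefore missed the threshold of 0.05.

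The other cofactors stayed closer to their controls. Tle4, a Groucho-family co-repressor, was at 10.4 FPKM in KO against 11.3 in control at P14, and at 16.9 FPKM in KO against 16.5 in control at P7, with overlapping bounds at both ages. Lmo4, which has LIM domains but no DNA-binding domain and binds Ldb proteins, was at 36.3 FPKM in KO against 32.8 in control at P14, and at 63.0 FPKM in KO against 63.1 in control at P7. Its bounds overlapped at both ages as well. Unlike Ldb2, which was lower at both ages, these cofactors showed no difference beyond counting error at either.

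Among the DNA-binding factors, Etv1 and Sox5 differed at 1 age each. Etv1, an ETS-family factor of cortical layer 5, was at 3.06 FPKM in the KO (bounds 2.69 to 3.43) and at 3.99 FPKM in control retina (3.52 to 4.47) at P14, a log2 difference of -0.30. At P7 Etv1 was nearly level, at 2.48 FPKM in KO against 2.43 in control. Sox5, a SoxD factor that controls the timing of deep-layer neurons, was at 2.84 FPKM in the KO (2.56 to 3.13) and at 2.12 FPKM in control retina (1.89 to 2.36) at P7, a log2 difference of 0.30 that exceeded 97.5% of the background genes. At P14 Sox5 was at 1.75 FPKM in KO against 1.65 in control, with overlapping bounds. At 1 to 5 FPKM, 6.99% of genes were lower beyond counting error at P14 and 2.26% were higher beyond it at P7. Whether the genotype difference of either gene changes with age could not be tested with 1 library per group.

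Bcl11b, Bcl11a and Foxp2 showed no difference beyond counting error. Bcl11b was at 0.436 FPKM in KO against 0.539 in control at P14, and at 0.564 FPKM in KO against 0.539 in control at P7. Its paralog Bcl11a, which is more abundant here, was at 3.42 FPKM in KO against 3.56 in control at P14, and at 4.37 FPKM in KO against 4.33 in control at P7. Foxp2, a forkhead factor of layer 6, was at 0.757 FPKM in KO against 0.632 in control at P14, and at 1.05 FPKM in KO against 0.778 in control at P7. For Bcl11b and Foxp2 at P14 the bounds of each library reached 18.4% to 22.8% to either side of their midpoint. Bounds of 2 libraries can therefore overlap at differences larger than that. Foxp2 at P7, for example, was at 1.35 times the control level with overlapping bounds.

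Pcp4, a small calmodulin regulator that labels corticofugal neurons and Purkinje cells, was at 478 FPKM in KO against 432 in control at P14, a log2 difference of 0.15. At P7 it was at 168 FPKM in KO against 187 in control, a difference of -0.15. Its levels lay above their own upper bounds in all 4 libraries, so the call rests on the bounds alone. At P14 the bounds ran from 320 to 345 in the KO and from 288 to 314 FPKM in the control, and 39.6% of genes at 100 FPKM or more were higher beyond counting error there. At P7 they ran from 110 to 125 in the KO and from 123 to 139 FPKM in the control and overlapped. Rescaling the libraries to TPM made the P14 bounds overlap, and made the P7 bounds of the KO lie below those of the control.

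**Figure D2:**
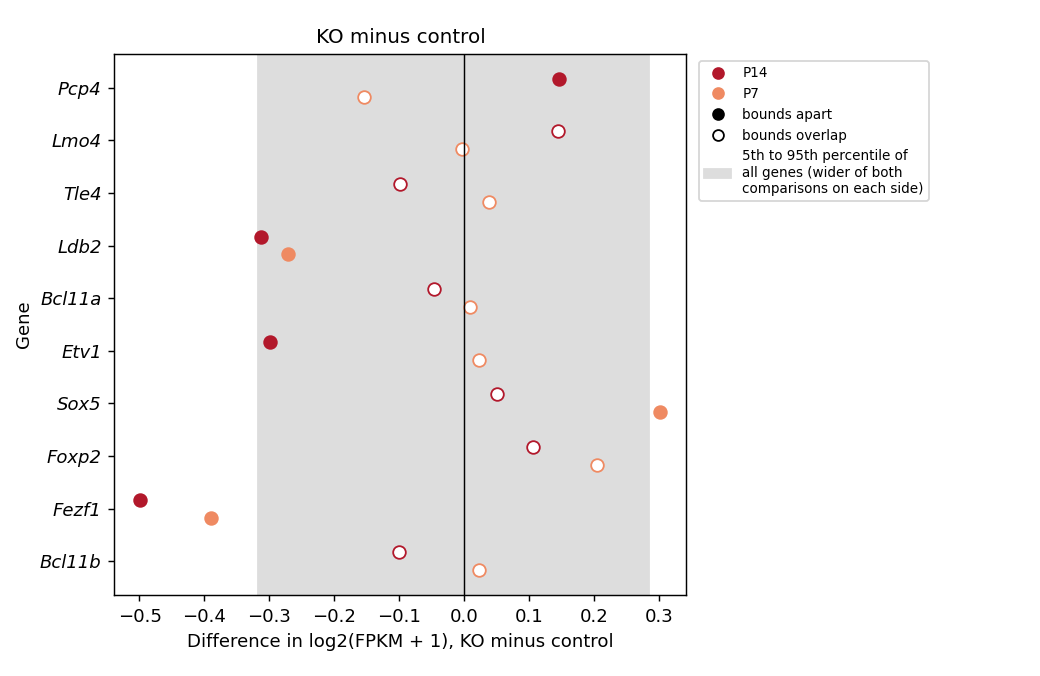
Difference in log2(FPKM + 1), KO minus control (horizontal axis), for the 10 genes at P14 and P7; filled points have bounds apart, open points overlapping bounds, and the grey band spans the 5th to 95th percentile of all genes, the wider of both ages on each side. Fezf1 lies left of the band at both ages (-0.50 and -0.39), Ldb2 lies at its lower edge (-0.31 and -0.27), and Sox5 at P7 lies beyond its upper edge (0.30).

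Over the 4 libraries, the limma fit tested 7 of the 10 genes, since Fezf1, Bcl11b and Foxp2 did not reach 1 FPKM in at least 2 libraries. It called 0 of the 7 for genotype at an adjusted p below 0.05, where the background was 0.24% of 12933 genes lower and 0% higher. At an unadjusted p below 0.05 it had 1 of the 7 (Ldb2), beside 9.16% of all genes (1185), a share that 1 of 7 does not stand out from. Fezf2 was among the genes called lower (log2 difference -2.35 ± 0.13 SE, limma adjusted p = 1.86e-06). That call was lost with no floor on level (limma adjusted p = 0.775), a setting that called 0 of 21802 genes for genotype. Without that floor, the fit gave Fezf1 a difference of -0.44 ± 0.043 (SE) with an unadjusted limma p of 0.0136 and an adjusted p of 0.775. This fit has 1 residual degree of freedom, so its errors lean on a spread shared between genes.

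With age, the genes moved in different directions. In KO retina, P14 against P7, 2 of the 10 were higher beyond counting error (Pcp4 and Ldb2) and 3 lower (Sox5, Tle4 and Lmo4). In control retina 3 were higher (Pcp4, Etv1 and Ldb2) and 2 lower (Tle4 and Lmo4). These shares are to be read against a background of 29% higher and 39.4% lower in KO (68.4% in all), and 27.6% higher and 37.7% lower in control (65.3% in all). By at least 1.5-fold on the log2(FPKM + 1) scale, 2 of the 10 were higher and 2 lower in KO, and 2 higher and 1 lower in control. On that scale 17.5% of all genes were higher and 21.6% lower in KO (39.1% in all). In control 16.4% were higher and 20.8% lower (37.3% in all). By the plain FPKM ratio, Etv1 in control (1.64 times the P7 level) and Sox5 in KO (61.5% of it) passed 1.5-fold as well. All genes had a median log2 difference of -0.09 in KO and -0.08 in control, which became -0.20 and -0.18 on a TPM scale. The age comparison in KO and the age comparison in control share no library, but each shares its libraries with the genotype comparisons.

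Pcp4 was at 478 FPKM at P14 and 168 FPKM at P7 in KO retina, and at 432 FPKM at P14 and 187 FPKM at P7 in control retina. The level was thus 2.85 times as high at P14 as at P7 in KO and 2.31 times as high in control, and both P14 values lay above both P7 values. In the limma fit Pcp4 rose by 1.36 ± 0.078 (SE) on the log2 scale with an adjusted p of 2.19e-08.

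Ldb2 rose as well, with 12.4 FPKM at P14 and 7.14 FPKM at P7 in KO retina and 15.7 FPKM at P14 and 8.82 FPKM at P7 in control retina. The P14 level was 1.74 times the P7 level in KO and 1.78 times in control, and the limma estimate was 0.74 ± 0.096 (SE, adjusted p = 2.03e-05). Ldb2 therefore had nearly the same ratio between ages in both genotypes. With 4 values this is the same statement as its nearly equal ratio between genotypes at both ages. Etv1 was at 3.06 FPKM at P14 and 2.48 FPKM at P7 in KO, and at 3.99 FPKM at P14 and 2.43 FPKM at P7 in control. It rose by 0.38 ± 0.12 (SE, limma adjusted p = 0.0127), with bounds apart in the control only.

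Lmo4 fell with age. It was at 36.3 FPKM at P14 and 63.0 FPKM at P7 in KO retina, which is 57.7% of the P7 level, and at 32.8 FPKM at P14 and 63.1 FPKM at P7 in control retina, or 51.9%. Its limma estimate was -0.85 ± 0.079 (SE, adjusted p = 1.24e-06). Tle4 fell to 61.7% of the P7 level in KO and 68.4% in control, with an estimate of -0.58 ± 0.094 (SE, limma adjusted p = 0.000134). Sox5 was at 1.75 FPKM at P14 and 2.84 FPKM at P7 in KO and at 1.65 FPKM at P14 and 2.12 FPKM at P7 in control, and fell by 0.36 on the log2 scale (SE 0.12, limma adjusted p = 0.0161).

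Bcl11a missed the threshold, with a limma estimate of -0.25 ± 0.11 (SE, adjusted p = 0.0529). It passed on a TPM scale (limma adjusted p = 0.0161), with no variance trend (0.0324) and with robust shrinkage (0.0477). It missed with the other pseudocounts, with no floor and with small RNAs kept. The main fit thus called 3 of the 7 tested genes higher and 3 lower with age. Of all genes, 30.7% were higher and 40.6% lower (71.4% in all). With no floor on level, 5 of these 6 calls were lost. Adjusted limma p was then 0.0513 for Lmo4, 0.0574 for Pcp4, 0.0624 for Tle4, 0.198 for Sox5 and 0.232 for Etv1. Ldb2 kept its call at 0.0472. Over all genes, that setting called 2723 of 21802 for age, against 9230 of 12933 in the main fit. Pcp4, Lmo4, Ldb2 and Tle4 kept their calls with a floor of 5 FPKM, which Sox5 and Etv1 did not reach. Fezf1 was at 0.396 FPKM at P14 and 0.295 FPKM at P7 in KO and at 0.972 FPKM at P14 and 0.697 at P7 in control. Its bounds overlapped between ages in both genotypes, as did those of Bcl11b and Foxp2.

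**Figure D3:**
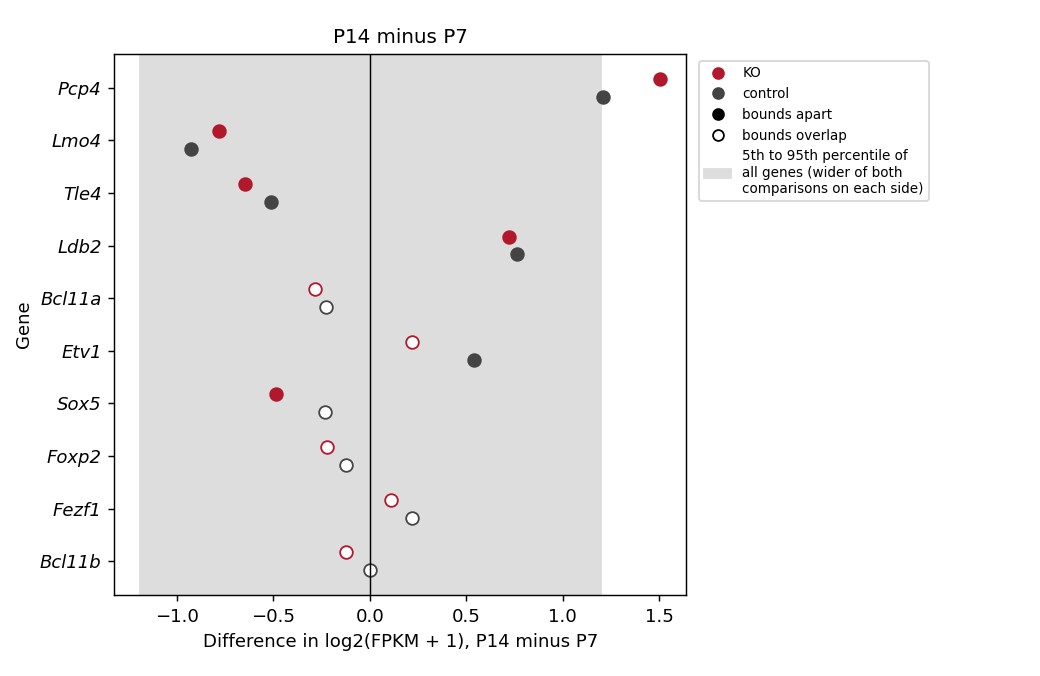
Difference in log2(FPKM + 1), P14 minus P7 (horizontal axis), for the 10 genes in KO and control retina; filled points have bounds apart, open points overlapping bounds, and the grey band spans the 5th to 95th percentile of all genes, the wider of both genotypes on each side. Pcp4 lies beyond the upper edge of the band (1.51 in KO and 1.21 in control), and Lmo4 is the lowest of the 10 (-0.78 and -0.93).

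Other genes of the cortical projection neuron program were read from lists fixed by name. Of 23 further corticofugal and deep-layer genes, 21 reached 1 FPKM at P14, with 2 higher and 3 lower in KO beyond counting error, and 20 at P7, with 4 higher and 1 lower. For this list and the next ones, the shares over all genes are 7.45% higher and 8.25% lower at P14 and 7.34% higher and 6.1% lower at P7. On a TPM scale Nr4a2 and Zfpm2 lost their calls at P7, which left 2 higher (Sox4 and Igfbp4), and Nfia joined the lower genes at P14. The medians were -0.03 at P14 and 0.07 at P7. Ctgf, a secreted matrix-associated growth factor, was furthest at P14 with 17.2 FPKM in KO against 9.19 in control. Diap3, a formin that nucleates actin, was at 1.28 FPKM in KO against 2.05 in control at P14, and Crim1, a transmembrane protein that binds BMPs, at 8.30 FPKM in KO against 9.82 in control. At P7 the nuclear receptor gene Nr4a2 was at 3.92 FPKM in KO against 2.96 in control, Sox4 at 134 FPKM in KO against 112 in control, and the GATA cofactor gene Zfpm2 at 7.23 FPKM in KO against 5.91 in control. Tbr1, which opposes Fezf2 in layer 6, stayed between 1.06 and 1.15 FPKM in all 4 libraries.

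Callosal and upper-layer genes, some of which Fezf2 holds down in cortical deep layers, moved both ways at P14 and little at P7. Of 15 such genes, 14 reached 1 FPKM at P14, with 1 higher (Cited2, a transcriptional coregulator gene) and 4 lower in KO beyond counting error, and 13 at P7, with 0 higher and 1 lower. The medians were 0.04 at P14 and 0.02 at P7, and at P14 8 of the 14 differences were positive and 6 negative. Cited2 was at 111.5 FPKM in KO against 88.2 in control at P14. The bHLH factor gene Bhlhe22 was at 13.9 FPKM in KO against 19.3 in control at P14, and the MADS-box factor gene Mef2c at 4.19 FPKM in KO against 6.01 in control. Lpl, which encodes lipoprotein lipase, was lower beyond counting error at both ages, at 5.78 FPKM in KO against 8.02 in control at P14 and at 8.86 FPKM in KO against 11.5 in control at P7. The limma fit called 0 of 22 corticofugal and 0 of 14 callosal genes for genotype at an adjusted p below 0.05, and 2 and 4 of them at an unadjusted p below 0.05, beside 9.16% of all genes.

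Paralogs and binding partners of the 10 genes gave 26 measured genes. In KO against control, 5 were higher and 3 lower beyond counting error among 25 at P14, and 4 higher and 2 lower among 26 at P7. Tle2, a paralog of Tle4, was lower at both ages, at 2.74 FPKM in KO against 4.07 in control at P14 and at 4.81 FPKM in KO against 6.78 in control at P7. Aes, a short Groucho-related gene, was higher at both, at 323 FPKM in KO against 268 in control at P14 and at 305 FPKM in KO against 284 in control at P7. Pcp4l1, the paralog of Pcp4, was higher in KO beyond counting error at both ages too, with 83.8 FPKM in KO against 74.7 in control at P14 and 34.5 FPKM in KO against 27.6 in control at P7. Hdac1, a histone deacetylase gene, was at 24.97 FPKM in KO against 20.2 in control at P14. At P7 Hdac1 was at 16.9 FPKM in KO against 20.6 in control, with overlapping bounds that came apart, lower in KO, on a TPM scale and when centred. On a TPM scale the calls of Hdac1, Pcp4l1 and Etv5 at P14 and of Aes and Tle1 at P7 ended and Rbbp4 joined the lower genes at P14, while Tle2 and Lpl stayed lower at both ages. Limma called 0 of these 26 genes for genotype at an adjusted p below 0.05, and 4 at an unadjusted p below 0.05, again beside 9.16% of all genes.

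**Figure D4:**
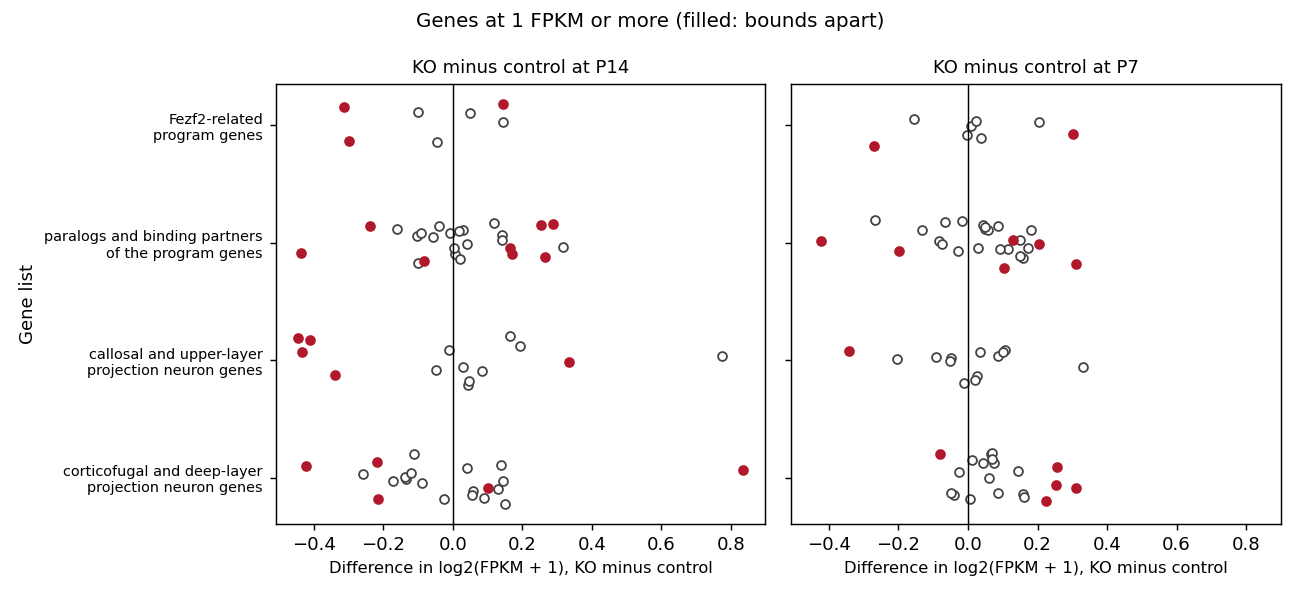
Difference in log2(FPKM + 1), KO minus control (horizontal axis), at P14 and at P7 for genes at 1 FPKM or more in either library, with the program genes above 3 lists of related genes; filled points have bounds apart and the vertical scatter within a list has no meaning. Points lie on both sides of 0 in each list, and Ctgf (0.83 at P14) is furthest to the right.

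With age, the related genes moved in both directions. The limma fit called 4 of the 26 higher and 16 lower, 6 of the 22 corticofugal genes higher and 12 lower, and 3 of the 14 callosal genes higher and 8 lower, beside 30.7% and 40.6% of all genes. Lmo1 was at 27.4 FPKM at P14 and 68.6 FPKM at P7 in KO and at 21.8 FPKM at P14 and 64.2 FPKM at P7 in control. Tle1 was at 7.02 FPKM at P14 and 20.8 FPKM at P7 in KO and at 7.61 FPKM at P14 and 17.9 FPKM at P7 in control. Pcp4l1, like Pcp4, was higher at P14 in both genotypes. In the corticofugal list the largest differences were in Sox4, Crym and Slc17a7. Sox4 was at 10.4 FPKM at P14 and 134 at P7 in KO and at 9.25 FPKM at P14 and 112 at P7 in control. Crym, a thyroid hormone-binding protein gene, was at 73.2 FPKM at P14 and 323 at P7 in KO and at 70.2 FPKM at P14 and 308 at P7 in control. Slc17a7, the vesicular glutamate transporter gene of photoreceptors and bipolar cells, was at 725 FPKM at P14 and 187 at P7 in KO and at 676 FPKM at P14 and 198 at P7 in control. Among callosal genes, Mef2c was at 4.19 FPKM at P14 and 0.672 FPKM at P7 in KO and at 6.01 FPKM at P14 and 0.707 at P7 in control, while Plxnd1, a semaphorin receptor gene, was at 1.78 FPKM at P14 and 7.25 FPKM at P7 in KO and at 1.69 FPKM at P14 and 6.69 at P7 in control. Pou3f2 was at 0.827 FPKM at P14 and 2.58 FPKM at P7 in KO and at 0.905 FPKM at P14 and 3.13 at P7 in control.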

How the data were processed

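Total RNA of retina was sequenced as 36-base single-end reads after random priming, per the labels' protocols. The values used are the authors' deposited FPKM with their bounds. Per the submitters' processing notes, Cufflinks 2.1.1, TopHat2 2.0.8b, CASAVA 1.8.2 and build mm9 were used; annotation and settings are not known here. The files hold no counts. FPKM exceeded its own upper bound at 1809 to 2243 of 23021 loci per library. Rows of one symbol were summed, and 5 to 8 failed loci per library were left out. Background genes had 1 FPKM or more in either library; small RNAs and loci under 300 bases (740 symbols) were left out. Genotype and age were fitted together with limma 3.58.1 (R 4.3.3) on log2(FPKM + 1), with a variance trend, over genes that reached 1 FPKM in 2 or more libraries; the step was tested on simulated data. Figures were drawn with matplotlib 3.10.9. The 1 residual degree of freedom of the limma fit is the difference of the genotype differences between the ages. The p-values are set against that spread, shared between genes. With 1 library per group, the spread between mice of one group could not be estimated on its own. Differences between the mice of the libraries and a genotype difference that changes with age would both enter this error. Alternatives were pseudocounts of 0.1 and 0.5 FPKM, a TPM scale, centring on the median, other floors, keeping small RNAs, and limma without a trend or with robust shrinkage. The genes named were the 10, Fezf2, up to 3 genes per list and comparison with the largest differences beyond counting error, and the 3 nearest patterns of genes that span 1 log2 unit; Tbr1 and genes shown at both ages were added after their values were seen. The 10 genes and the lists were chosen with earlier results of these data known.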

Additional observations from a re-analysis of the deposited data

Results flagged for a closer look

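Pcp4 and Etv1 had genotype differences of opposite sign at the 2 ages, with bounds apart at P14 and overlapping at P7, and the difference between the ages was not tested. For Pcp4 the KO minus control difference was 0.15 at P14 and -0.15 at P7 on the log2(FPKM + 1) scale, 0.30 apart; the P7 bounds came apart on a TPM scale and when centred. For Etv1 it was -0.30 at P14 and 0.02 at P7, -0.32 apart; at P7 it took the sign it has at P14 on a TPM scale (-0.012) and when centred (-0.00022). Bcl11b, Bcl11a, Tle4 and Lmo4 also had opposite signs at the 2 ages, with overlapping bounds at both.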

How the results depend on the processing

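No paired analysis was possible because the labels give no replicate numbers and each group has 1 library. Leaving out a library would end a comparison or leave limma no residual degree of freedom. The median of the 10 genes for P14 against P7 in KO was -0.17 and became -0.34 on a TPM scale. Limma called 31 genes for genotype, which became 0 with no floor on level (1289 at an unadjusted p below 0.05), 77 (30 higher and 47 lower) with a floor of 5 FPKM and 17 with no variance trend. For age it called 9230, which became 2723 with no floor. The other 47 summary values and 254 values of single genes stayed within their spread or on their side of the threshold. Of single genes 16 moved, 3 newly passed, 7 no longer passed and 0 reversed. A reversal was counted only for limma estimates and for differences with bounds apart. Small differences with overlapping bounds could change sign and still count as within their spread. Among them, KO against control at P7 turned negative on a TPM scale for Bcl11a (-0.031), Tle4 (-0.0036) and Etv1 (-0.012). The median of the 10 genes did so too (-0.02). Of genes with bounds apart between KO and control, 54.6% were higher in KO at P7 and 47.4% at P14, which became 29.3% and 24.3% on a TPM scale and 41.5% and 37.3% when centred on the median of genes at 5 FPKM or more. Fezf1, Ldb2, Sox5 and Etv1 kept their genotype calls under both. Pcp4 was lower in KO at P7 under both, and was not called at P14 on a TPM scale. With age, rescaling to TPM added Bcl11a and Foxp2 (KO) and Sox5 (control) to the lower genes, and centring added Etv1 (KO) to the higher ones. The cause of these changes was not tested.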

Other observations

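Pcp4 and Ldb2 spanned at least 1 log2 unit over the 4 libraries, and the genes with the most similar pattern were sought among 12667 others by the Euclidean distance of log2(FPKM + 1) values centred on each gene's mean. Over only 4 libraries such a likeness is a description. Nearest to Pcp4 were Fam163b (distance 0.024), Thoc5 (0.060) and Pir (0.060). Fam163b was at 5.50 FPKM in KO against 4.94 in control at P14, and at 1.30 FPKM in KO against 1.52 in control at P7. Nearest to Ldb2 were Dus2l (0.057), Fancg (0.072) and Crot (0.085), which encodes a peroxisomal carnitine acyltransferase. Crot was at 20.4 FPKM in KO against 24.6 in control at P14, and at 12.5 FPKM in KO against 14.3 in control at P7.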
